A study of Mus musculus with 3 samples.

Results

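The genes described here are the solute carriers of mouse skeletal muscle endothelial cells, without the families named mainly for amino acid transport. They were chosen by name and by abundance: each gene row whose symbol begins with Slc and a digit was taken, the families Slc1a, Slc3a, Slc6a, Slc7a, Slc38a, Slc43a and Slc9a3r were left out, and a gene was kept with at least 100 UMIs (unique molecular identifiers, each standing for 1 captured RNA molecule) summed over all barcodes of the 3 libraries. Of 378 such rows among 41605 gene rows, 63 belonged to the families left out and 315 were eligible. Of these, 129 genes in 41 families were kept, and 80 of the 315 had 0 UMIs. Abundance was what chose them, so their levels are given as a description.

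All cells came from gastrocnemius muscle of C57BL/6N mice and were sorted as viable CD31+ CD45- cells before droplet capture. The study compared mice that ran on a wheel with mice that did not. The running library came from mice housed singly with a wheel for 14 days, and the sedentary library from singly housed mice without one. A further library was labelled only as having had no treatment. Its housing, and whether it was made with the other 2 libraries, are not given in the sources used here, so its group and its batch cannot be told apart. Each group had 1 library, and the ages and number of animals behind each were not given. No test between groups was therefore possible, and no difference has a replicate check. Intervals are exact and cover counting error only.

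Solute carriers are membrane proteins that move small molecules across membranes without spending ATP directly. The Slc25a family sits in mitochondria and exchanges nucleotides, phosphate and metabolites with the cytosol, the Slc35 families carry nucleotide sugars into the secretory pathway, and others serve glucose, lactate, nucleosides, fatty acids, vitamins, metals and inorganic ions. Endothelial cells line the route by which fuel reaches muscle fibres, and lactate, adenosine and ions leave it.

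The libraries held 4376, 4079 and 3260 barcodes (untreated, sedentary and running, the order used throughout) with 8002866, 5625068 and 5983685 UMIs. Clustering gave 13 clusters, of which 5 were capillary-like, 2 artery-like, 1 vein-like and 1 lymphatic-like by their markers. Capillary-like cells numbered 2543, 3228 and 2425, artery-like cells 1073, 433 and 378, vein-like cells 519, 188 and 202, and lymphatic-like cells 27, 10 and 43. Median UMIs per capillary-like cell were 1388, 950 and 1341. The libraries filled the capillary-like class through different clusters: cluster 0 held 1255 of the untreated cells, cluster 3 held 1141 of the sedentary cells and cluster 1 held 1046 of the running cells. Pairs of libraries shared 20 to 32 barcode sequences, and none was in all 3. The 13 capillary markers summed to 12404 to 13442 CPM (counts per 1000000 UMIs of the class in that library) in capillary-like cells, against 7038 to 8004 CPM in artery-like and 4745 to 4947 CPM in vein-like cells. The 16 vein markers summed to 5770 to 6921 CPM in vein-like cells and to at most 757 CPM in artery- and capillary-like cells. Hemoglobin and other erythrocyte markers (7 genes) summed to 156, 1025 and 686 CPM in capillary-like cells, and the lymphatic list of 9 genes to 64.3, 96.4 and 173 CPM there.

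The 129 solute carriers gave 79948 UMIs, between 0.396% and 0.418% of each library. Most were sparse: the median gene had 348 UMIs, 94 genes had under 500 and 17 had at least 1000. The genes just inside the limit of 100 UMIs were Slc2a9 with 108, Slc2a4rg-ps with 110 and Slc25a53 with 113, and those just outside were Slc16a4 with 94, Slc22a23 with 92 and Slc25a29 with 89. A name beginning with Slc does not make a transporter. Slc2a4rg-ps is annotated as a pseudogene, and Slc4a1ap encodes an adaptor protein. The Slc36a genes and several Slc25a genes carry amino acids although their families were kept. In the annotation, 25 of the 129 overlap a protein-coding gene on the other strand, and no source used here says whether counting used strand.

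By family, the mitochondrial Slc25a carriers dominated, with 32 members and 29345 UMIs, 36.7% of all solute carrier UMIs. Their summed level was 1468, 1419 and 1447 CPM in capillary-like cells, 1593, 1555 and 1610 CPM in artery-like cells and 1555, 1510 and 1555 CPM in vein-like cells. The family total thus stayed within a narrow band over classes and libraries. Its 3 leading members were the ADP/ATP exchangers Slc25a4 (6472 UMIs) and Slc25a5 (4708) and the phosphate carrier Slc25a3 (5159), which together supply the ATP synthase. Metal, ion and sugar families followed. The zinc importers of Slc39a (8 members) summed to 253, 239 and 233 CPM in capillary-like cells and the zinc exporters of Slc30a (6 members) to 159, 197 and 179 CPM. The cation chloride cotransporters of Slc12a (6 members) summed to 176, 191 and 174 CPM in capillary-like and 214, 239 and 218 CPM in artery-like cells, with artery-like cells above in each library. The nucleotide sugar carriers of Slc35a (5 members) summed to 170, 169 and 181 CPM in capillary-like and 133, 123 and 118 CPM in vein-like cells. With the sugar transporter Slc50a1 (4802 UMIs) the 3 mitochondrial leaders made up 26.4% of all solute carrier UMIs.

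**Figure D1:**
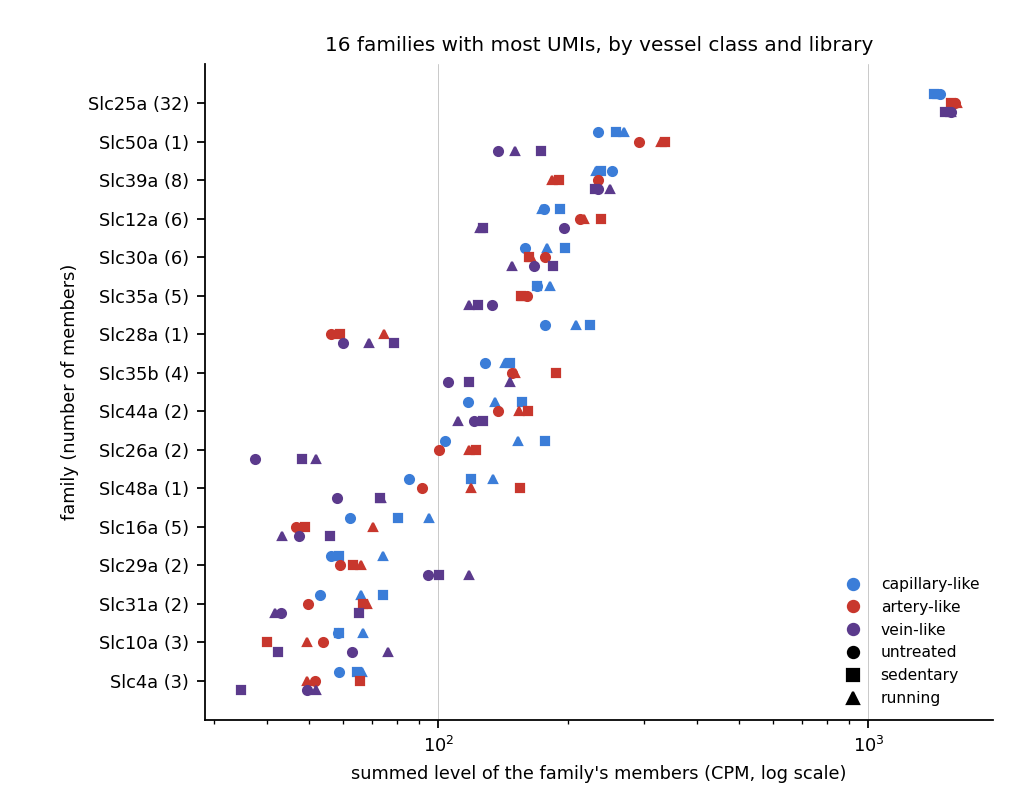
Summed level of the members of each of the 16 families with most UMIs (horizontal log axis, CPM), by vessel class (colour) and library (symbol). Slc25a lies between 1419 and 1610 CPM in every class and library, while Slc28a lies at 177 to 226 CPM in capillary-like cells and at 56.1 to 79.0 CPM in artery- and vein-like cells.

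Of the 41 families, 13 had a member at 50 CPM or more in capillary-like cells of at least 1 library. Slc25a4, which exchanges ADP for ATP across the inner mitochondrial membrane, stood at 283, 284 and 287 CPM in capillary-like cells. Slc50a1, a member of the SWEET sugar transporters, stood at 236, 259 and 270 CPM there and at 137, 173 and 151 CPM in vein-like cells. The vein-like values of Slc50a1 were below its capillary-like values in each library. The heme transporter Slc48a1 was at 85.4, 119 and 134 CPM in capillary-like cells. Its annotated span overlaps Hdac7 on the other strand. The choline transporter-like gene Slc44a2 was at 59.7, 103 and 81.3 CPM, lowest in the untreated library. The zinc importer Slc39a1 was at 81.2, 73.6 and 75.2 CPM in capillary-like cells and at 103, 98.2 and 106 CPM in vein-like cells, so the ranges did not overlap. Slc35b1, of the endoplasmic reticulum, was at 68.0, 80.3 and 69.9 CPM. Slc35a4, a relative of the nucleotide sugar carriers, was at 41.5, 60.9 and 66.0 CPM. Zinc leaves the cytosol through Slc30a1, which stood at 46.2, 54.2 and 38.3 CPM. The copper transporter relative Slc31a2 was at 42.0, 60.4 and 50.4 CPM. The remaining leading members, Slc12a7, Slc26a10, Slc28a2 and Slc29a1, differed between vessel classes and are described next.

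The nucleoside carrier Slc28a2 was lower in both artery- and vein-like cells than in capillary-like cells. It couples the uptake of purine nucleosides such as adenosine to sodium. In capillary-like cells it stood at 177, 226 and 209 CPM (683, 871 and 793 UMIs), in artery-like cells at 56.1, 58.9 and 74.9 CPM and in vein-like cells at 60.1, 79.0 and 69.0 CPM. No artery- or vein-like value reached the lowest capillary-like one. The log2 ratio of artery- to capillary-like cells was -1.66 (95% interval -1.95 to -1.38), -1.93 (-2.37 to -1.54) and -1.48 (-1.86 to -1.12) in the 3 libraries, and that of vein- to capillary-like cells was -1.56, -1.51 and -1.60. A UMI of Slc28a2 was found in 22.8%, 23.0% and 26.3% of capillary-like cells. With each cell thinned to 1000 UMIs the shares were 16.2%, 17.6% and 17.5% in capillary-like cells, 5.17%, 5.94% and 5.48% in artery-like cells and 4.91%, 4.44% and 7.33% in vein-like cells. The share in capillary-like cells was thus above both other classes at equal depth. Thinning left out shallower cells, 615, 1687 and 790 of the capillary-like, 106, 46 and 31 of the artery-like and 30, 8 and 11 of the vein-like cells. Slc28a2 lies on chromosome 2 (GRCm38, 122426477 to 122461137, plus strand). Its neighbour Gm14085, annotated next to it, had 2 UMIs in all vessel classes together.

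The 250 bases before the RefSeq start of Slc28a2 are shown because it is the most abundant gene of the set that was lower in both other classes (GRCm38.p6, chr2:122426185-122426434, plus strand, 5′ to 3′). Capitals would mark a match to the motifs searched on both strands, RBPJ (GTGGGAA), SOX (AACAAT), HIF (ACGTG), the COUP-TF site (AGGTCA) and ETS (CCGGAAG). This window holds none of these letter strings.
Slc28a2: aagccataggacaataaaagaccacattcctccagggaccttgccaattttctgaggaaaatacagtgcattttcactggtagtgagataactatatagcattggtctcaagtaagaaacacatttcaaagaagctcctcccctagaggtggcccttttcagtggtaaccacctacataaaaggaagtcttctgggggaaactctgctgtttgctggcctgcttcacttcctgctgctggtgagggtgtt

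Artery-like cells were set against capillary-like cells, and a gene was counted where its ratio passed 1.5-fold the same way in all 3 libraries. This held for 10 of 129 solute carriers, 6 higher and 4 lower. That is 7.75% of the set, beside 9.73% of all 10933 genes read (4.16% higher, 5.57% lower), so the share of the set was not above that of all genes. Without the untreated library the count was 20 (7 higher, 13 lower), with 9 of the 10 genes among them. The share of all genes at that setting is not given here, so 20 cannot be set against it. The median over the set was 0.01 on the log2 scale and that over all genes -0.07. The classes came from clustering with these genes among the others, so the differences describe the classes and are no test.

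Artery-like cells were led by Slc45a4, a member of the sugar transporter-related Slc45 family. It stood at 56.6, 46.7 and 56.1 CPM in artery-like cells (125, 42 and 51 UMIs) and at 2.33, 2.85 and 1.58 CPM in capillary-like cells (9, 11 and 6 UMIs). The log2 ratios were 4.51 (3.63 to 5.76), 3.94 (3.05 to 5.14) and 4.97 (3.93 to 6.66). In vein-like cells it had 1, 0 and 1 UMIs, and a count of 0 allows up to 5.78 CPM in the sedentary vein-like cells. The artery-like values lay above every capillary- and vein-like value. A UMI was found in 9.13%, 8.08% and 11.9% of artery-like cells, at medians of 1762, 1871 and 2168.5 UMIs per cell, and in 0.236%, 0.310% and 0.247% of capillary-like cells. After thinning the artery-like shares were 3.93%, 4.65% and 5.76%. Of its 256 UMIs in kept cells, the 2 artery-like clusters held 148 and 70, and 20 of the rest lay in the capillary-like cluster 2. Slc45a4 lies on chromosome 15 (73577424 to 73645762, minus strand).

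The potassium chloride cotransporter Slc12a5, best known from neurons, followed the same order. It stood at 62.0, 47.8 and 44.0 CPM in artery-like, 16.1, 18.1 and 13.2 CPM in capillary-like and 1.41, 0 and 1.44 CPM in vein-like cells (2, 0 and 1 UMIs). Artery-like cells were the highest class in each library and vein-like cells the lowest. The artery to capillary log2 ratios were 1.94 (1.504 to 2.40), 1.39 (0.81 to 1.97) and 1.72 (1.10 to 2.37). A related cotransporter, Slc12a7, was at 84.2, 84.4 and 84.8 CPM in artery-like cells against 50.1, 49.7 and 47.2 CPM in capillary-like cells. Its vein-like values of 82.0, 57.8 and 41.7 CPM spread over both. Markers of nerve-ensheathing Schwann cells (6 genes) summed to 77.9, 85.6 and 123 CPM in artery-like cells and to 34.8, 44.8 and 52.5 CPM in capillary-like cells, with Sox10 at 0 in both classes. Their part in the Slc12a5 result was not tested.

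RefSeq places Slc12a5 starts at 2 sites, and 250 bases before the second are shown because they carry a motif that the first lacks (GRCm38.p6, chr2:164967738-164967987, plus strand). The capitals are HIF letters on both strands, overlapping each other, 36 and 35 bases before that start.
Slc12a5: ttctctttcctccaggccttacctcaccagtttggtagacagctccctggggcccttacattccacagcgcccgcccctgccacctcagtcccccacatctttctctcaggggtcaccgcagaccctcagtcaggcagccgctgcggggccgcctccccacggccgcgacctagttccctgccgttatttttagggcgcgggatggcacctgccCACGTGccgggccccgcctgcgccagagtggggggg

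Of the other artery-led genes, the orphan carrier Slc35f1 had 53, 18 and 9 UMIs in artery-like and 29, 12 and 4 UMIs in capillary-like cells, with log2 ratios of 1.65 (0.99 to 2.38), 2.61 (1.55 to 3.87) and 2.996 (1.39 to 5.38). Slc15a3, a histidine and peptide carrier of lysosomes, was at 12.7, 14.4 and 16.5 CPM against 6.75, 6.22 and 7.13 CPM. The log2 ratio of Slc15a3 was 0.57 when each library was clustered alone, below the 1.5-fold limit of 0.58, against a median of 1.19 over the libraries in the joint clustering. The riboflavin transporter Slc52a3 had 31, 18 and 22 UMIs in artery-like cells against 24, 35 and 34 in the larger capillary-like class. Its log2 ratios were 1.15, 1.12 and 1.41, and it was higher still in vein-like cells. In thinned cells a UMI of Slc52a3 was found in 1.24%, 0.517% and 2.31% of artery-like and 0.467%, 0.844% and 1.04% of capillary-like cells. The order was thus reversed in the sedentary library at equal depth, on few cells, 2 of 387 against 13 of 1541.

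The lower genes of artery-like cells were the bicarbonate carrier Slc4a7, Slc28a2 and a pair of monocarboxylate carriers. Slc4a7 was at 7.70, 11.1 and 7.71 CPM in artery-like and 24.6, 18.1 and 22.2 CPM in capillary-like cells, and its sedentary log2 ratio of -0.70 had an interval that included 0 (-1.83 to 0.26). Slc16a1, the lactate and pyruvate carrier MCT1, had 5, 1 and 3 UMIs in artery-like cells (2.26, 1.11 and 3.30 CPM) against 25, 50 and 59 UMIs in capillary-like cells (6.49, 13 and 15.6 CPM). Its log2 ratios were -1.45 (-3.26 to -0.11), -3.32 (-8.88 to -0.999) and -2.17 (-4.56 to -0.62). Slc16a6, which exports ketone bodies in other tissues, had 2, 2 and 1 UMIs against 46, 57 and 73, with log2 ratios of -3.50 (-6.81 to -1.79), -2.62 (-5.81 to -0.81) and -3.89 (-9.45 to -1.61). Both stayed below every capillary-like value in artery-like cells. Slc16a6 overlaps Amz2 and Arsg on the other strand.

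**Figure D2:**
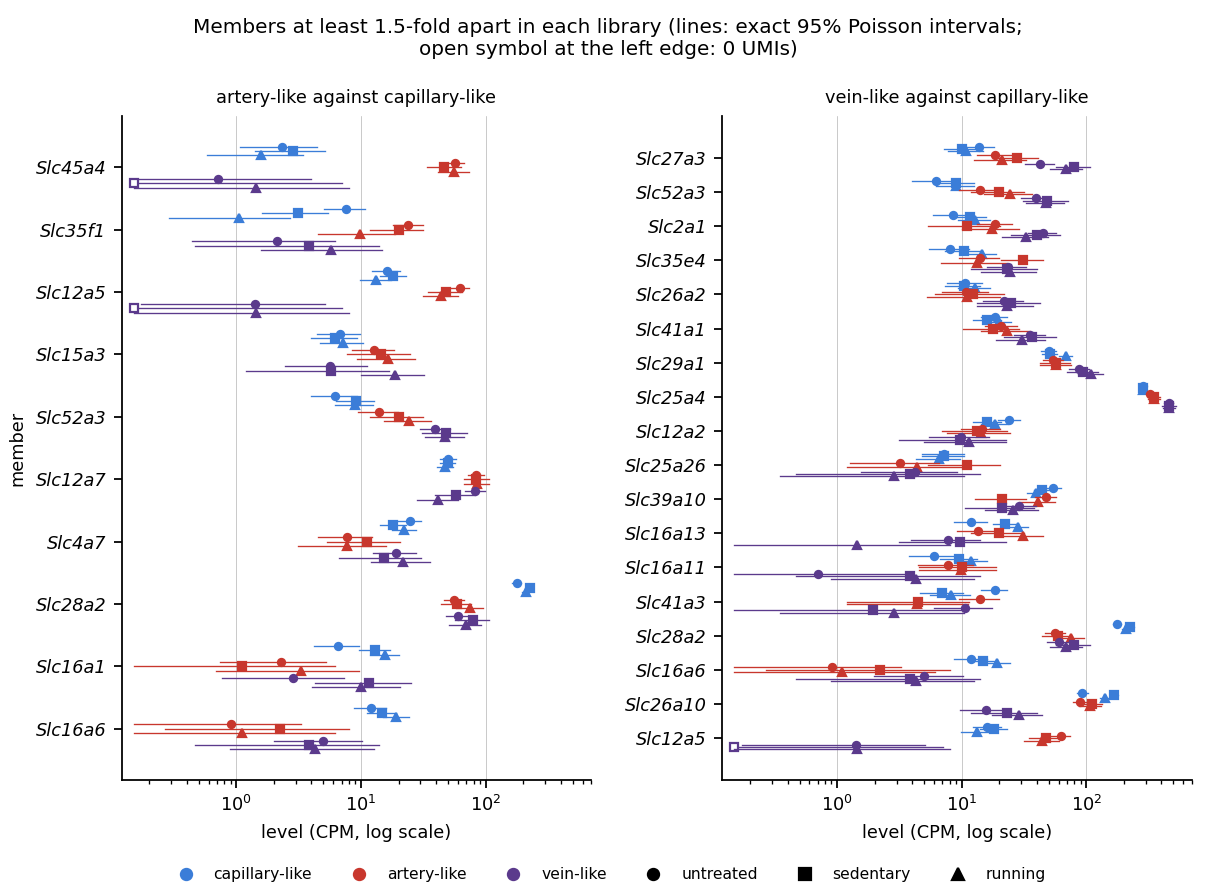
Level of each member that differed by at least 1.5-fold in each library between artery- and capillary-like cells (left) or vein- and capillary-like cells (right), on a log axis in CPM, by class (colour) and library (symbol) with exact 95% Poisson intervals. Open symbols at the left edge had 0 UMIs. Slc45a4 and Slc12a5 lie to the right in artery-like cells, and Slc27a3, Slc52a3 and Slc2a1 in vein-like cells.

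In vein-like cells 18 of 128 solute carriers differed from capillary-like cells by at least 1.5-fold in each library, 8 higher and 10 lower. That is 14.1% of the set beside 13.1% of all 10790 genes read (4.93% higher, 8.2% lower), again close to the background. The medians were -0.21 over the set and -0.20 over all genes. With cells thinned to 1000 UMIs the count was 11, with 8 of the 18 genes among them, and without the untreated library it was 28 (8 higher, 20 lower), with all 18 among them. Shares of all genes at these settings are not given here, so neither count can be set against them.

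Of the 8 genes higher in vein-like cells, 6 belong to carriers or families known for fatty acids, riboflavin, glucose, sulfate, magnesium and nucleosides, and the others were the orphan Slc35e4 and the ADP/ATP exchanger Slc25a4. Slc27a3, of the fatty acid transport protein family, stood at 42.4, 79.0 and 69.0 CPM in vein-like and 13.8, 10.1 and 10.8 CPM in capillary-like cells. Its log2 ratios were 1.61 (1.07 to 2.19), 2.94 (2.30 to 3.64) and 2.65 (2.04 to 3.31). Slc52a3 was at 39.6, 48.1 and 47.5 CPM in vein-like cells, with log2 ratios of 2.63, 2.38 and 2.37. The glucose transporter Slc2a1 (GLUT1) was at 44.6, 40.4 and 33.1 CPM against 8.56, 11.7 and 12.7 CPM, with log2 ratios of 2.35 (1.75 to 3.03), 1.77 (0.97 to 2.57) and 1.37 (0.60 to 2.13). For these 3 genes each vein-like value was above every capillary- and artery-like value.

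For Slc27a3 and Slc2a1 thinning lowered the shares of cells with a UMI but kept the order. Slc27a3 was found in 4.29%, 6.67% and 6.81% of thinned vein-like cells and in 1.24%, 0.909% and 1.35% of thinned capillary-like cells. Slc2a1 was found in 3.27%, 4.44% and 4.71% against 0.985%, 1.04% and 1.16%. Before thinning the vein-like shares of Slc2a1 were 10.8%, 10.6% and 11.4%, at medians of 2624, 2658.5 and 3260.5 UMIs per cell.

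Weaker differences in the summed levels had the same direction. The orphan carrier Slc35e4 was at 23.3, 23.1 and 24.5 CPM in vein-like and 8.04, 10.4 and 14.5 CPM in capillary-like cells. The sulfate carrier Slc26a2 was at 21.9, 25.0 and 23.0 CPM against 10.6, 10.4 and 12.7 CPM. The magnesium transporter Slc41a1 was at 35.4, 36.6 and 30.2 CPM against 18.4, 16.1 and 19.8 CPM. In thinned cells its shares were 3.89%, 3.33% and 1.57% in vein-like against 1.87%, 1.30% and 2.02% in capillary-like cells. The order of Slc41a1 was thus reversed in the running library at equal depth. Slc29a1 (ENT1), the equilibrative carrier that lets adenosine cross in either direction, was at 87.7, 94.4 and 109 CPM against 49.8, 50.8 and 68.1 CPM. It was thus higher in the vein-like cells, where Slc28a2 was lower. Slc25a4 was at 457, 462 and 462 CPM against 283, 284 and 287 CPM, with log2 ratios of 0.69 (0.55 to 0.83), 0.70 (0.49 to 0.90) and 0.68 (0.50 to 0.86). In these summed levels of Slc25a4 no class overlapped another, since artery-like cells had 324, 350 and 347 CPM. In thinned cells a UMI of Slc25a4 was found in 24.6%, 28.7% and 25.9% of capillary-like and 26.1%, 32.0% and 25.9% of artery-like cells. These shares overlapped, while the vein-like shares of 35.2%, 32.8% and 36.1% were above both.

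The 250 bases before the starts of Slc27a3 and Slc2a1 are shown because these genes led the vein-like cells (GRCm38.p6, chr3:90389939-90390188, minus strand, and chr4:119108495-119108744, plus strand). Both run 5′ to 3′ on the gene's strand. Capitals mark SOX letters 240 bases before the Slc27a3 start and HIF letters 36 bases before the Slc2a1 start.
Slc27a3: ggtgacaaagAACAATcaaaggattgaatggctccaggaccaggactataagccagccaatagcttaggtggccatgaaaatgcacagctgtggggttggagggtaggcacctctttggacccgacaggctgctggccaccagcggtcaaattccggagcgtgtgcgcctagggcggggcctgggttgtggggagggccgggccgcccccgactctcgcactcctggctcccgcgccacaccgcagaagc
Slc2a1: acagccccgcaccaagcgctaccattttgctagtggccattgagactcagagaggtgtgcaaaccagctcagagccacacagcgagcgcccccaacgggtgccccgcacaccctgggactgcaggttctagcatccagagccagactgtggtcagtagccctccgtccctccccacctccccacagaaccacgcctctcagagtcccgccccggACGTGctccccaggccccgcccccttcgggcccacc

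Such letters are common. A window with the HIF letters on either strand made up 16.6% of the 32851 RefSeq windows of this length and 22.3% of the 130 windows of the 98 solute carriers found in that table, and the SOX letters were in 9.42% and 2.31%. A match is a description of the letters and not of a bound site.

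Lower in vein-like cells were 3 of the 5 monocarboxylate family members, beside 8.2% lower among all genes read. These 3 were counted on few vein-like UMIs and are given below with their thinned shares. An anion carrier family member, a sodium-potassium-chloride cotransporter and others were lower too. Slc26a10 was at 15.6, 23.1 and 28.8 CPM in vein-like cells against 92.9, 166 and 140 CPM in capillary-like cells, with log2 ratios of -2.56 (-3.27 to -1.96), -2.83 (-3.81 to -2.03) and -2.28 (-3.01 to -1.65). Artery-like cells, at 89.7, 110 and 107 CPM, stayed near the capillary-like level. Slc26a10 (chromosome 10, 127171393 to 127180645, minus strand) shares 938 bases with B4galnt1 on the other strand, and reads from the 2 genes cannot be told apart without strand. B4galnt1 itself was listed at 0.259, 0.777 and 0.264 CPM in capillary-like cells and had 0 UMIs in vein-like cells.

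Slc12a5, with its 2, 0 and 1 vein-like UMIs, had log2 ratios to capillary-like cells of -3.34 (-6.58 to -1.59) in the untreated and -3.01 (-8.53 to -0.65) in the running library. Slc16a6 had 7, 2 and 3 UMIs, at 4.95, 3.85 and 4.31 CPM against 11.9, 14.8 and 19.3 CPM. Its median log2 ratio moved from -1.88 to -0.79 with cells thinned to 1000 UMIs. In those cells Slc16a6 was found in 0.613%, 1.11% and 0.524% of vein-like and 0.934%, 0.973% and 1.53% of capillary-like cells. It was thus not lower in the sedentary library at equal depth. Slc16a11 had 1, 2 and 3 UMIs against 23, 37 and 45, and Slc16a13 had 11, 5 and 1 against 46, 86 and 107. These neighbours lie tail to tail with 371 bases between them, and both were counted lower on few vein-like UMIs. With cells thinned to 1000 UMIs, Slc16a11 was found in 0.204%, 0.556% and 0.524% of vein-like and 0.415%, 0.649% and 1.28% of capillary-like cells. For Slc16a13 the shares were 0.818%, 0% and 0.524% against 0.934%, 2.14% and 2.20%. The differences were thus small in the sedentary library for Slc16a11 and in the untreated library for Slc16a13. The magnesium transporter Slc41a3 had 15, 1 and 2 UMIs against 71, 27 and 31, and all 3 of its intervals included 0. Its median log2 ratio of -1.44 became -0.85 with each library clustered alone and -3.47 with cells thinned to 1000 UMIs. The zinc importer Slc39a10 was at 29.0, 21.2 and 25.9 CPM against 54.5, 44.0 and 39.6 CPM, and the sodium-potassium-chloride cotransporter Slc12a2 at 9.90, 9.63 and 11.5 CPM against 24.1, 16.1 and 18.5 CPM. The last of the 10, the mitochondrial S-adenosylmethionine carrier Slc25a26, had 6, 2 and 2 UMIs against 28, 28 and 25.

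The vein-like cells also carried more of the 8 smooth muscle markers than capillary-like cells, 458, 707 and 726 CPM against 24.4, 56.2 and 58.1 CPM. Most of this was Tagln at 428, 628 and 601 CPM. Myl9 was also higher in each library, at 20.5, 55.8 and 104 CPM against 6.49, 26.2 and 26.4 CPM in capillary-like cells. So was Acta2, at 6.36, 21.2 and 14.4 CPM against 0.259, 4.40 and 6.33 CPM. Lmod1 was at 0 in vein-like cells. Of the 10 pericyte markers Abcc9 and Cspg4 were at 0 in vein-like cells. The 6 satellite cell markers summed to 434, 404 and 357 CPM there, nearly all of it Vcam1, an adhesion molecule that venous endothelium also makes, at 433, 402 and 355 CPM, while Pax7, Myf5, Myod1 and Chodl were at 0. With cells holding over 0.5% of UMIs from muscle, erythrocyte and mural markers left out, 18 solute carriers were counted in vein-like cells, 17 of them as before. This count has no share of all genes beside it. The vein-like class then held 1407516, 508196 and 675413 UMIs in place of 1413952, 519279 and 695266. So little was left out that the part of these markers in the vein-like differences was not tested.

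Between vein- and artery-like cells directly, 15 of 107 solute carriers read differed by at least 1.5-fold in each library, 7 higher and 8 lower in vein-like cells, beside 13% of all genes read (5.5% higher, 7.47% lower). Slc50a1 was among the lower, at 137, 173 and 151 CPM against 293, 337 and 329 CPM in artery-like cells, as were Slc45a4, Slc12a5, Slc26a10 and Slc48a1. Among the higher was the bile acid carrier family member Slc10a6, which takes up steroid sulfates, at 38.2, 11.6 and 40.3 CPM against 17.2, 6.67 and 15.4 CPM. Its sedentary values rest on few counts, 6 UMIs in vein-like cells and 3 in each of the 2 artery-like clusters.

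Inside the capillary-like class the clusters differed as well. These values describe clusters built from the same genes. Slc28a2 stood at 313 and 265 CPM in clusters 3 and 4 and between 154 and 175 CPM in clusters 0, 1 and 2. Cluster 3 had the lowest depth, a median of 687 UMIs per cell. Slc26a10 was among the 10 leading genes of cluster 2, beside Btnl9 and Cxcr4, at 227 CPM, against 76.0 CPM in cluster 0. Slc16a1 and Slc16a6 were highest in cluster 3, at 26.4 and 27.8 CPM, and lowest in cluster 2, at 4.83 and 3.76 CPM. Slc25a4 ran the other way, with 170 CPM in cluster 3 and 286 to 311 CPM in the other capillary-like clusters.

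Slc16a1 was concentrated in a small cluster that matched no vessel class. This cluster of 132 cells (59, 41 and 32 by library) was led by Penk, Itm2a and Esm1 and stayed unnamed. It held 1.14% of the cells and 50 of the 215 Slc16a1 UMIs, 23.3%. Its Slc16a1 level was 110 CPM (16 UMIs), 186 CPM (18) and 145 CPM (16) in the 3 libraries. Every library showed it above the highest capillary-like cluster, at 39.4 CPM in the running cells of cluster 3. A UMI of Slc16a1 was found in 42 of the 132 cells, 31.8% (exact 95% interval 23.99 to 40.5), at a median of 2389 UMIs per cell. In vein-like cells, at the higher median of 2719 UMIs, the share was 1.76%. The same cluster was high for Slc27a3, with 39 UMIs and 111 CPM, and for the zinc and iron importer Slc39a14, with 32 UMIs and 90.7 CPM against at most 34.3 CPM in the capillary-, artery- and vein-like clusters. These genes were picked after their values were seen.

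The lymphatic-like cells, 80 in all, had Slc25a4 at 734 CPM (169 UMIs), Slc29a1 at 139 CPM (32 UMIs), Slc31a2 at 135 CPM (31 UMIs) and the copper importer Slc31a1 at 47.8 CPM (11 UMIs). By library Slc25a4 was at 906, 965 and 592 CPM there, above the vein-like 457 to 462 CPM in each. The cluster with pericyte markers had the cotransporter Slc12a2 at 76.4 CPM (23 UMIs), against 28.5 CPM or less in the capillary-, artery- and vein-like clusters.

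**Figure D3:**
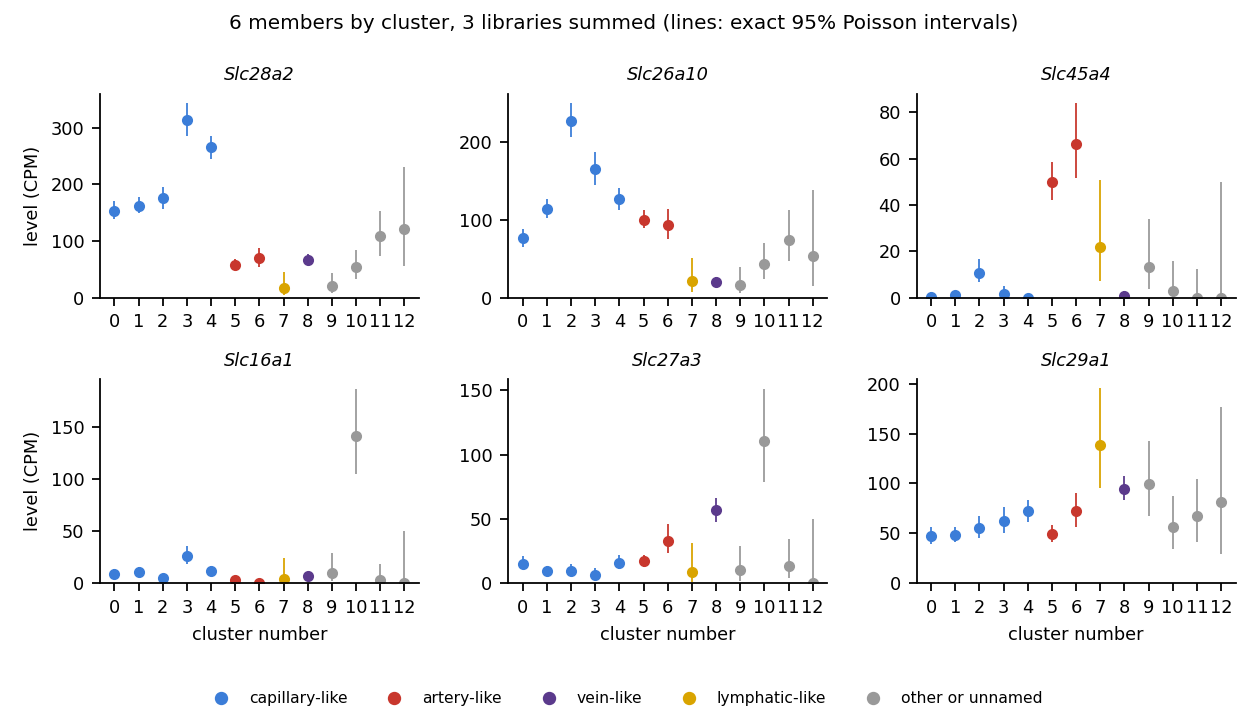
Level of 6 members (vertical axes, CPM) in each of the 13 clusters (horizontal axes), 3 libraries summed, with exact 95% Poisson intervals; colour gives the vessel class. Slc45a4 peaks in the artery-like clusters 5 and 6, Slc28a2 in the capillary-like clusters 3 and 4, and Slc16a1 in the unnamed cluster 10 at 142 CPM.

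Running against sedentary was the study's own contrast, and few solute carriers differed. The cluster with most running capillary-like cells was cluster 1 (1046 of 2425) and that with most sedentary ones cluster 3 (1141 of 3228), the cluster of lowest depth, and the part of this in the ratios was tested only by the other sums that follow. In capillary-like cells 4 of 124 genes read (at least 50 UMIs over both libraries) differed by at least 1.5-fold, 3 higher and 1 lower in running. That is 3.23% of the set beside 6.82% of all 9563 genes read (3.45% higher, 3.37% lower), and the median log2 ratio was -0.01 over the set and -0.01 over all genes. All 32 Slc25a members lay within 1.5-fold, with Slc25a4 at a log2 ratio of 0.01 (-0.11 to 0.14).

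Slc35e2, an orphan carrier, had 19 UMIs in sedentary and 36 in running capillary-like cells (4.92 and 9.50 CPM), a log2 ratio of 0.93 (0.11 to 1.83). The untreated library had 35 UMIs and 9.08 CPM, so sedentary was the low library. It overlaps Gm10563 on the other strand. Slc33a1, which brings acetyl-CoA into the endoplasmic reticulum, was at 12.7, 10.6 and 17.2 CPM, a log2 ratio of 0.68 (0.11 to 1.29). Slc35d1, a nucleotide sugar carrier, was at 5.19, 6.22 and 9.50 CPM, 0.60 (-0.17 to 1.42). Slc22a17, a lipocalin receptor, was at 7.0, 9.85 and 6.33 CPM, -0.63 (-1.44 to 0.14). The last pair of intervals included 0.

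Which genes were counted depended on which cells were summed. With cells thinned to 1000 UMIs 6 genes were counted, and with each library clustered alone 4 were, and in both cases none of the 4 named was among them. These counts have no share of all genes beside them. In the thinned cells Slc35e2, Slc35d1 and Slc22a17 had log2 ratios of 1.12, 1.10 and -1.12 but fell under the 50 UMIs needed to be read, while Slc33a1 was at 0.54. With each library clustered alone Slc33a1 was at 0.36 and Slc35d1 at 0.58, below the limit. Slc22a17 was at -0.38 with at least 500 genes per cell. With all kept barcodes summed Slc33a1 was at 0.43 and Slc22a17 at -0.50.

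Other members stayed below the limit in capillary-like cells. Slc29a1 was at 49.8, 50.8 and 68.1 CPM in capillary-like cells, a running to sedentary log2 ratio of 0.42 (0.15 to 0.70), below the 1.5-fold limit. In artery-like cells its ratio was 0.01 (-0.57 to 0.60). Slc28a2 had a ratio of -0.11 (-0.25 to 0.03), and the lactate carrier Slc16a1 one of 0.26 (-0.30 to 0.84). The potassium chloride cotransporter Slc12a4 was at -0.39 (-0.73 to -0.05) in capillary-like and -0.86 (-1.70 to -0.09) in artery-like cells. In artery-like cells 3 of 37 genes read differed by at least 1.5-fold, Slc39a10 higher and Slc24a5 and Slc12a4 lower, beside 7.68% of all genes (3.65% higher, 4.03% lower). The zinc importer Slc39a10 had 19 UMIs in sedentary and 37 in running artery-like cells, a ratio of 0.93 (0.11 to 1.83), and 105 UMIs in the larger untreated class. In vein-like cells 1 of 20 did, Slc31a2, which was lower at -0.96 (-1.86 to -0.14), beside 9.35% of all genes (4.78% higher, 4.57% lower).

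**Figure D4:**
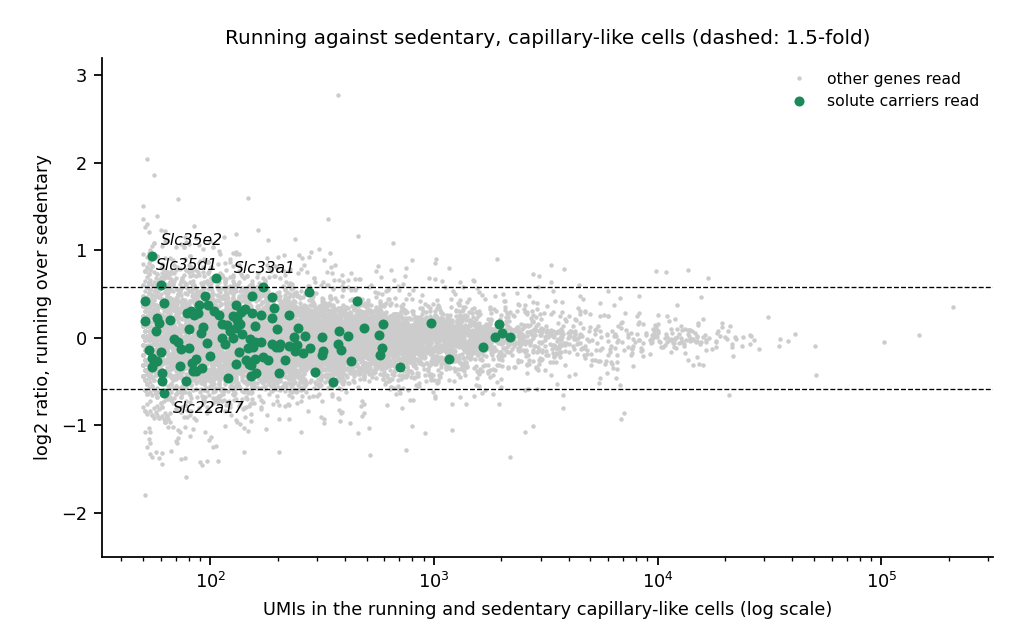
Log2 ratio of running to sedentary (vertical axis) against UMIs in both libraries (horizontal log axis) in capillary-like cells, for the 124 solute carriers read (green) and all other genes read (grey), with dashed lines at 1.5-fold and 1 gene outside the plotted range. The 4 solute carriers past the lines, named in the plot, have few UMIs, and those with over 1000 UMIs lie near 0.

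The untreated library, with 1255 of its 2543 capillary-like cells in cluster 0, was set against the sedentary one in the same way. In capillary-like cells 27 of 119 solute carriers read differed from sedentary by at least 1.5-fold, 22.7% beside 20.5% of all 9483 genes read (7.16% higher, 13.3% lower), again near the background. Of these, 6 were higher and 21 lower in the untreated library. The median log2 ratio over all genes was -0.11, and that over the set -0.17. With TMM scaling, which moves the median of all genes to -0.01, the split was 12 higher and 16 lower. With cells thinned to 1000 UMIs it was 14 higher and 9 lower, with 8 of the 27 genes among them. Neither split has a share of all genes beside it.

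The 3 highest ratios belonged to the mitochondrial Slc25a37 and Slc25a46 and to Slc41a3. Slc25a37 (mitoferrin 1), the mitochondrial iron importer best known from red cell precursors, was at 27.2, 8.03 and 9.24 CPM in capillary-like cells (105, 31 and 35 UMIs). The untreated to sedentary log2 ratio was 1.75 (1.17 to 2.39). It was 1.29 (0.34 to 2.44) in artery-like and 1.28 (0.23 to 2.59) in vein-like cells. The untreated library was the high one in each class. The erythrocyte markers went the other way, 156 CPM in untreated against 1025 CPM in sedentary capillary-like cells, and their part in the Slc25a37 result was not tested.

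Slc25a46, an outer membrane protein that acts in mitochondrial fission and fusion, was at 93.1, 37.8 and 34.8 CPM in capillary-like, 73.4, 27.8 and 38.5 CPM in artery-like and 70.7, 23.1 and 17.3 CPM in vein-like cells. The log2 ratios of untreated to sedentary were 1.30 (1.02 to 1.59), 1.39 (0.79 to 2.07) and 1.59 (0.75 to 2.61). In the 5 capillary-like clusters the untreated value was 83.6 to 110 CPM and the sedentary value 19.3 to 45.3 CPM, so the libraries did not overlap in any of them.

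Of the other genes of higher ratio, the magnesium transporter Slc41a3 was at 18.4, 7.0 and 8.18 CPM, a log2 ratio of 1.38 (0.74 to 2.09). Slc35e2, described above, had 0.87 (0.04 to 1.77). Slc25a24, a calcium-regulated carrier of ATP and phosphate, was at 23.6, 14.8 and 16.4 CPM, 0.67 (0.18 to 1.18), and at 0.39 without cluster 0. With all kept barcodes summed, Slc35e2 was at 0.48 and Slc25a24 at 0.55. The other one, Slc35a1, which brings CMP-sialic acid into the Golgi apparatus, was at 57.1, 36.0 and 31.9 CPM, 0.66 (0.35 to 0.98).

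The 5 lowest ratios were spread over unrelated families. Slc18b1, a polyamine carrier of vesicles, was at 5.97, 14.0 and 12.1 CPM, a log2 ratio of -1.21 (-2.001 to -0.50). The lysosomal Slc35f6 was at 7.52, 16.3 and 17.7 CPM, -1.10 (-1.80 to -0.46). Slc12a4 was at 20.2, 43.5 and 33.3 CPM, -1.10 (-1.51 to -0.71). In each of these the sedentary and running values lay together above the untreated one. The peptide and histidine carrier Slc15a4 was at 5.71, 12.2 and 10.3 CPM, -1.08 (-1.89 to -0.33).

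Slc16a1 had 25, 50 and 59 UMIs, -0.98 (-1.75 to -0.28). With cells thinned to 1000 UMIs its ratio was -0.10, and without cluster 3 it was -0.58. Slc12a4 moved the other way, to -1.63 without cluster 0.

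The other genes of low ratio held 6 of the 30 mitochondrial Slc25a carriers read, beside 17.6% lower in the whole set and 13.3% of all genes. Another 3 Slc25a carriers were higher. Among the 6 were the citrate carrier Slc25a1 at 10.9, 19.95 and 18.5 CPM and Slc25a39, which brings glutathione into mitochondria, at 28.3, 44.0 and 38.5 CPM. The choline transporter-like Slc44a2 had a ratio of -0.78 (-1.02 to -0.54) and Slc26a10 one of -0.84 (-1.03 to -0.65). Both have over 1000 UMIs, and for both the running value lay between those of the other libraries.

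In artery-like cells 15 of 67 solute carriers read differed between untreated and sedentary (8 higher, 7 lower), beside 20.5% of all genes (11.1% higher, 9.4% lower). In vein-like cells 13 of 39 did (7 higher, 6 lower), beside 27.3% (15% higher, 12.4% lower). Slc25a46 and Slc25a37 were counted higher in all 3 classes. The artery-like cluster 5 held 868 untreated and 242 sedentary cells, and the artery-like cluster 6 held 205 and 191. The part of this mix in the artery-like counts was not tested.

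**Figure D5:**
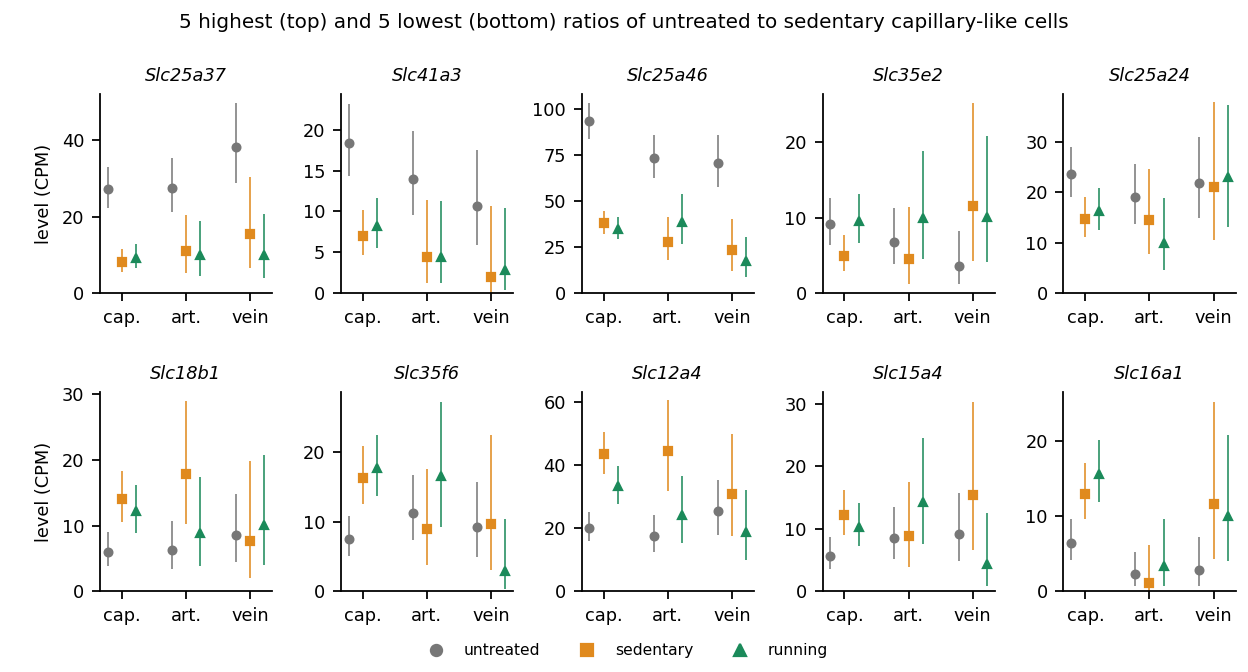
Level (vertical axes, CPM, from 0) of the members with the 5 highest and 5 lowest untreated to sedentary ratios in capillary-like cells, in capillary-, artery- and vein-like cells of each library, with exact 95% Poisson intervals. Slc25a37 and Slc25a46 stand apart in the untreated library in all 3 classes.

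Genes that work with these carriers were read from 10 lists of 63 genes in all. Between running and sedentary capillary-like cells 4 of 49 read were at least 1.5-fold higher and 0 lower, beside 3.45% and 3.37% of all genes read, with no test possible at 1 library a group. Among the 4 was Acsl1, which activates fatty acids, at 50.7 CPM in running against 32.6 CPM in sedentary, a log2 ratio of 0.63 (0.30 to 0.97). Another was Ada, which deaminates adenosine, at 8.71 against 4.4 CPM, 0.96 (0.10 to 1.92), and it stood at 8.56 CPM in the untreated library. Between untreated and sedentary cells 5 of 48 read were higher and 5 lower, beside 7.16% and 13.3% of all genes read.

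By vessel class 5 of 54 partner genes were higher and 8 lower in artery-like than in capillary-like cells, beside 4.16% and 5.57% of all genes read. In vein-like cells 7 of 54 were higher and 5 lower, beside 4.93% and 8.2%. In the fatty acid uptake list, 4 of 6 genes were lower in artery-like cells and 3 of 6 in vein-like cells, beside the same 5.57% and 8.2% of all genes. Lpl and Gpihbp1, lower in both, were also capillary markers used to name the classes, as was Car4 of the bicarbonate list. Their direction was thus partly set by the naming and is no separate result. Lpl, which releases fatty acids from lipoproteins, was at 832, 548 and 379 CPM in capillary-like, 244, 162 and 188 CPM in artery-like and 168, 152 and 163 CPM in vein-like cells. Vein-like Slc27a3 thus ran opposite to Lpl. Bsg, the chaperone of the monocarboxylate carriers, was at 2348, 2607 and 2579 CPM in artery-like cells against 484, 654 and 572 CPM in capillary-like cells, the opposite order to Slc16a1. In the adenosine list, Nt5e, the ectoenzyme that makes adenosine, was at 67.2, 28.9 and 27.3 CPM in vein-like cells and at most 1.30 CPM in capillary-like cells. Vein-like cells thus had higher levels of Nt5e and Slc29a1, and lower levels of Slc28a2, than capillary-like cells.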

How the data were processed

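The authors deposited unnormalised UMI counts for each gene row and barcode, made with Cell Ranger 2.0.2 on GRCm38.p5 per the submitters' processing notes, from 10x 3' version 2 libraries per the labels' protocols. The annotation release, cell calling and use of strand are not given in the sources used here. Barcodes with at least 300 genes and at most 10% mitochondrial UMIs were kept. Scrublet marked 9 of 11554 (0.0779%) and so did not work as a doublet filter; these were left out, leaving 4322, 4011 and 3212 cells. Cells were scaled to 10000 UMIs and clustered together in scanpy 1.11.5 (2000 variable genes, 30 components, 15 neighbours, Leiden resolution 1) without integration. Clusters were named from 15 marker lists, with score limits of 0.3 for a vessel class and 1 for other types set after the data were seen.

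UMIs were summed per class and library and scaled to CPM. Each UMI counts 1 end of an RNA, so values were not divided by length. Log2 ratios used a prior count of 0.5, with exact 95% Poisson intervals, and shares of cells used exact Clopper-Pearson intervals. Cells are not replicates, and with 1 library a group no test was made. A gene was read with at least 50 UMIs over the samples compared and counted past 1.5-fold, between classes in each of the 3 libraries. A limit for a count of 0 used 3 counts. The calculation was tested on simulated counts. Members and lists were chosen with earlier results of these data known. In full were named the leading member of each family with a gene at 50 CPM in capillary-like cells, each gene counted between running and sedentary, and the 5 highest and 5 lowest of the other comparisons. Alternatives covered scaling (edgeR 4.0.16 TMM, median of ratios), minimum, fold, thinning, doublets, clustering and cells. Positions are from GENCODE M21 (GRCm38), promoters from RefSeq (GRCm38.p6). Some genes of the lists are not reported individually here.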

Additional observations from a re-analysis of the deposited data

How the results depend on the processing

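No paired analysis was possible because each group has 1 library. At a lower fold limit (0.32 on the log2 scale in place of 0.58), 32 of 124 solute carriers (16 higher, 16 lower) were counted between running and sedentary capillary-like cells, beside 24.5% of all genes read, and 56 of 119 between untreated and sedentary, beside 46.6%. Against capillary-like cells the counts were 22 of 129 for artery-like, beside 18.3%, and 30 of 128 for vein-like cells, beside 24.9%. For the alternatives that follow, shares of all genes are not given here. With a minimum of 1 UMI the running count was 7. Thinned to 1000 UMIs, the vein-like count was 11, with 105 genes read in place of 128 and 8 of the 18 genes among them, and the cause was not tested. Leaving out 1 library at a time gave 11 to 20 for artery-like and 22 to 28 for vein-like cells, with fewer libraries required to show the direction. All other alternatives, scaling and clustering included, kept each of the 4 counts within 1.5 times. Of 444 recomputed log2 ratios of 33 named results, all kept their sign and 439 stayed inside the counting interval of the main value. These ratios come from the same 3 libraries, so a kept sign is no replicate check. In single libraries the thinned shares of Slc41a1, Slc52a3 and Slc16a6 did reverse, as given above.

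Depth limits the sparse genes: 94 of 129 had under 500 UMIs, and a count of 0 allows up to 5.78 CPM in sedentary vein-like cells and 0.777 CPM in sedentary capillary-like cells. Differences between libraries have no replicate check.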
